A study of Mus musculus with 6 samples.

Results

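The 10 genes described here supply serine, one-carbon units, asparagine and cysteine: Phgdh, Psat1, Psph, Shmt2, Mthfd2, Aldh1l2, Asns, Cth, Slc7a11 and Slc3a2. They were taken as the probe sets whose single annotated symbol is one of these names, and the values of a gene's probe sets were averaged on the log2 scale. All 10 were measured, by 11 probe sets, among 22180 genes on the arrays, and all 10 reached the floor of 5.06 (the median of all values) on at least 1 array, as did 13652 genes in all. The cells were C2C12, 1 mouse line of myoblasts, which proliferate with ample serum and form multinucleate myotubes once serum is reduced; the labels name the cell type as myoblasts in all groups. Growth-medium cultures were kept in DMEM with 10% FBS, either untreated, with 50 ng/ml TNF-α for 24 h, or with 10 nM BTZ for 24 h. Differentiation-medium cultures were grown the same way and then moved to 2% differentiation medium. On day 4 they were left untreated or received 50 ng/ml TNF-α or 10 nM BTZ, with harvest on day 5. The cytokine TNF-α promotes inflammation. BTZ, which the labels do not spell out, usually stands for bortezomib, a proteasome inhibitor. Each of the 6 groups was 1 sample on 1 Affymetrix whole-transcript array, so a difference between 2 arrays has no error of its own and no p-value.

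Serine is made from a glycolytic intermediate by Phgdh, Psat1 and Psph in sequence. Shmt2 moves a carbon from serine to folate in the mitochondrion, and Mthfd2 and Aldh1l2 oxidise the folate-bound carbon there. Cysteine comes from outside the cell as cystine, through the transporter of Slc7a11 and its partner chain Slc3a2, or from methionine by way of Cth, and it feeds glutathione synthesis. In many cells Atf4, the transcription factor of the integrated stress response, drives genes of this set together with Asns, the asparagine synthetase. It binds C/EBP-ATF response elements in their promoters or introns.

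Promoter sequence was at hand for 8 of the 10 genes in the RefSeq table of GRCm38.p6, which gives 250 bases before and 50 after each start. Each promoter was searched on both strands for TGATGNAA, the core letters of the C/EBP-ATF response element. Of 32851 listed promoters, 3.97% held it, and 2 of the 8 genes did, Slc7a11 and Asns. In Slc7a11 the letters occur at -66 to -59 on the gene's strand and at -47 to -40 on the other strand; 0.0700% of all promoters held 2 or more matches. In Asns they lie at -23 to -16. The last 100 bases before the start are shown for these genes and for Psph, which was higher with BTZ in both media and has no match in its window. All run 5′ to 3′ on the minus strand of the genome, with matches in capitals.
Slc7a11, chr3:50443614-50443713: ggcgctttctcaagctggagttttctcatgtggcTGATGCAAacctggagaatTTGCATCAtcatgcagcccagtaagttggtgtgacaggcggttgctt
Asns, chr6:7693210-7693309: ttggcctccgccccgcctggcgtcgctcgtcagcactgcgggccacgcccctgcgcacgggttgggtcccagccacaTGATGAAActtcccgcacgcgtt
Psph, chr5:129787254-129787353: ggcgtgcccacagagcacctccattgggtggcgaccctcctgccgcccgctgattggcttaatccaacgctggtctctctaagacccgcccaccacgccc
The letters TGACNNNGC of the antioxidant response element were in 12.4% of all promoters and in 3 of the 8 genes, Phgdh, Psph and Asns. A match is a description of the letters in this window, not a measured binding site.

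The array medians lay between 5.01 and 5.11 log2 units. All 5 myoblast markers (Myod1, Myf5, Des, Cdh15 and Pax7) were above the floor on every array. The summed linear signal of 6 myotube markers (Myog, Myh3, Ckm, Acta1, Mymk and Ttn) was 273 to 422 in growth medium, 17014.5 in untreated differentiation medium, 13637 with TNF-α and 5598 with BTZ. In bulk RNA, fewer cells of a type and less RNA per cell cannot be told apart. Of 5 macrophage markers 2 reached the floor, and the leukocyte gene Ptprc stayed between 3.22 and 3.56. The macrophage marker Cd68 read up to 7.74 (growth medium with BTZ) and by the additive fit rose with BTZ by 0.89 ± 0.20 (SE, limma adjusted p = 0.0411); its part in the results was not tested. None of the 5 endothelial markers and 1 of 4 measured adipocyte markers reached the floor.

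**Figure D1:**
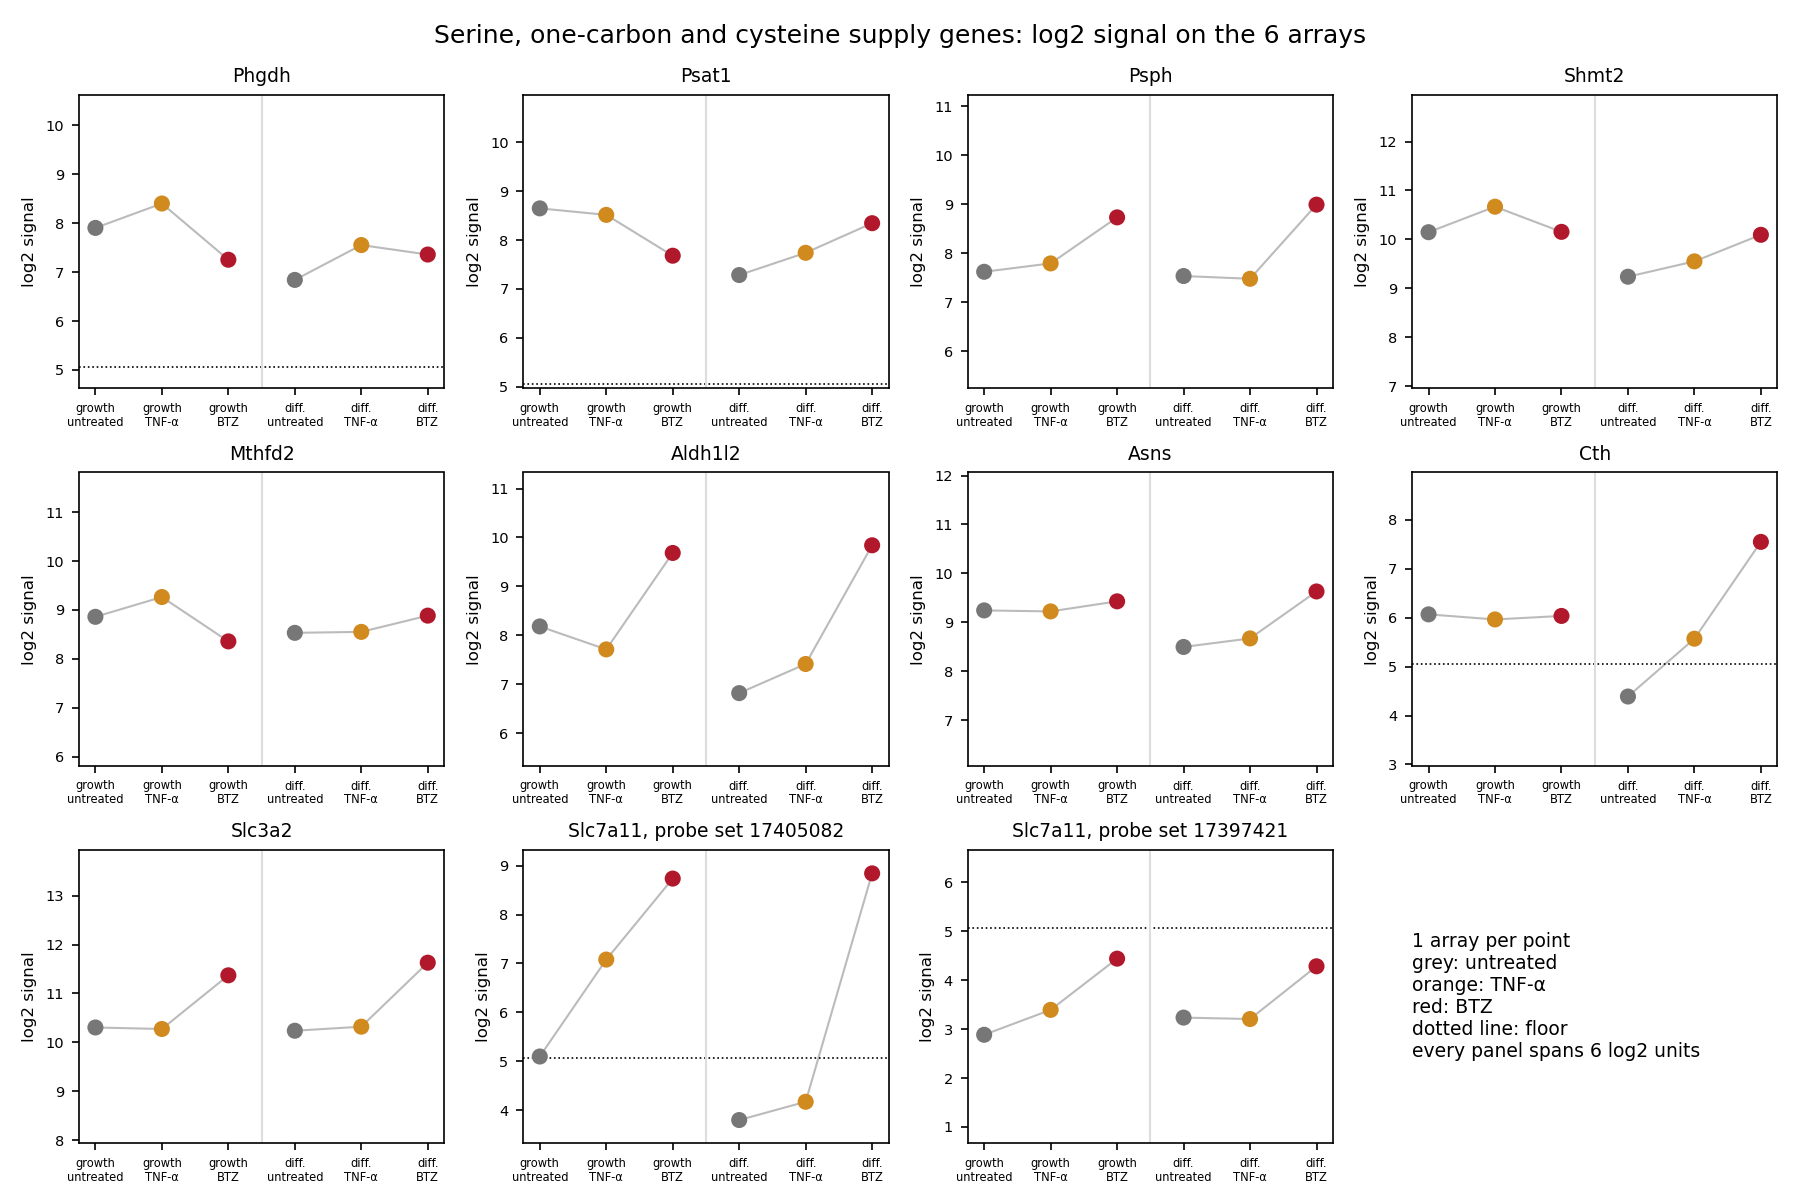
Log2 signal (vertical axis) on each of the 6 arrays (horizontal axis; diff., differentiation medium), 1 panel per gene and 1 for each Slc7a11 probe set; each point is 1 array and the dotted line is the floor of 5.06. The red BTZ points stand above the grey untreated points in both media for Psph, Aldh1l2, Slc3a2 and Slc7a11, and in growth medium they stand below them for Phgdh, Psat1 and Mthfd2.

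The 3 serine synthesis enzymes did not move together. Phgdh, the first enzyme of the pathway, read 7.90 untreated, 8.40 with TNF-α and 7.25 with BTZ in growth medium, and 6.84, 7.55 and 7.36 in differentiation medium. Its lowest value was the untreated differentiation array and its highest the TNF-α array in growth medium. BTZ went with a log2 difference of -0.65 in growth medium and 0.52 in differentiation medium. Psat1, the aminotransferase of the next step, read 8.65, 8.51 and 7.68 in growth medium and 7.28, 7.74 and 8.34 in differentiation medium, in the same order of untreated, TNF-α and BTZ. With BTZ it was lower by 0.97 log2 units in growth medium (1.96-fold) and higher by 1.06 in differentiation medium (2.09-fold), the widest change of direction among the 10 genes. Psph, the phosphatase that releases serine, read 7.62, 7.79 and 8.73 in growth medium and 7.53, 7.48 and 8.99 in differentiation medium. Its 2 BTZ arrays were the highest, and the other 4 lay within 0.31 of each other. The BTZ differences of Psph were 1.11 and 1.46, or 2.16-fold and 2.75-fold.

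Among the mitochondrial one-carbon enzymes, Aldh1l2 stood apart. This formyl-folate dehydrogenase read 8.18 untreated, 7.71 with TNF-α and 9.68 with BTZ in growth medium, and 6.82, 7.41 and 9.84 in differentiation medium. Both BTZ arrays were above the other 4, by 2.83-fold over untreated cells in growth medium and 8.13-fold in differentiation medium. The larger fold in differentiation medium goes with a lower untreated level there, since the BTZ levels differed by 0.16 between media. Shmt2, the serine hydroxymethyltransferase of mitochondria, read 10.15, 10.67 and 10.15 in growth medium and 9.24, 9.55 and 10.09 in differentiation medium. Its BTZ array in growth medium matched the untreated array to 0.01 log2 units, a difference that became -0.04 once array medians were made equal and -0.10 under quantile normalization. In differentiation medium Shmt2 was higher with BTZ by 0.86. Mthfd2, the mitochondrial methylene-folate dehydrogenase, had the smallest range of the 10 genes, 0.91 log2 units. It read 8.86, 9.26 and 8.36 in growth medium and 8.53, 8.55 and 8.88 in differentiation medium, so its growth-medium BTZ array was the lowest and its growth-medium TNF-α array the highest.

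Asns, which carries an element match in the promoter shown above, read 9.24, 9.22 and 9.43 in growth medium, a spread of 0.21 over untreated, TNF-α and BTZ. In differentiation medium it read 8.50, 8.67 and 9.63, with BTZ higher than untreated by 1.13 log2 units (2.20-fold). The growth-medium BTZ difference was 0.19.

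The cysteine supply genes include the 2 of the 10 that read under the floor on some arrays, Cth and Slc7a11, so their differences from those arrays are not exact. Slc7a11, the cystine transporter, has 2 probe sets that disagree in level and in size of difference. Probe set 17405082 read 5.1 untreated, 7.08 with TNF-α and 8.74 with BTZ in growth medium, and 3.80, 4.17 and 8.84 in differentiation medium. Both BTZ arrays were the highest, growth-medium TNF-α stood between them and the rest, and 2 arrays were under the floor. Probe set 17397421 read 2.88, 3.39 and 4.44 in growth medium and 3.24, 3.21 and 4.29 in differentiation medium, under the floor on all 6 arrays. BTZ differences were 3.64 and 5.04 by the first probe set and 1.56 and 1.05 by the other, with growth medium named first. Their means were 2.60 and 3.05, or 6.05-fold and 8.26-fold; by gene mean both untreated arrays were under the floor. The 2 probe sets also differed in sign between untreated media, at -1.30 and 0.35.

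Slc3a2, the heavy chain that holds the Slc7a11 protein at the membrane, read 10.31, 10.27 and 11.37 in growth medium and 10.24, 10.32 and 11.63 in differentiation medium. Its 4 arrays without BTZ lay within 0.08 of each other, and BTZ went with 2.09-fold and 2.62-fold higher signal. Cth, which releases cysteine from cystathionine, read 6.07, 5.97 and 6.04 in growth medium, a spread of 0.10. In differentiation medium it read 4.39 untreated, under the floor, 5.57 with TNF-α and 7.55 with BTZ. There BTZ stood 3.16 log2 units above the untreated value as read, and 2.49 above the floor, against -0.03 in growth medium.

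BTZ was thus set against untreated cells in each medium. In growth medium Slc7a11, Aldh1l2, Psph and Slc3a2, 4 of the 10 genes, passed 2-fold upward and 0 passed it downward, where 4.99% of the 13652 compared genes did so upward and 6.16% downward. The median of the 10 was 0.10, against 0.02 over all genes. In differentiation medium 7 of the 10 passed upward and 0 downward, where 6.05% and 8.91% of all genes did. The exceptions were Shmt2, Phgdh and Mthfd2, which were above the untreated array by less than 2-fold. The median of the 10 was 1.26, against 0.00 over all genes. On the same arrays 5 of 6 myotube markers were lower by 2-fold or more with BTZ in differentiation medium and 0 of 6 in growth medium. In untreated growth medium Myh3 read 4.38, under the floor, and Ckm, Mymk and Ttn 5.51 to 5.66. These genes had little room to fall there, so the media are not compared on equal terms. Of 5 myoblast markers 3 were lower by 2-fold or more in each medium. The part of these markers in the values of the 10 genes was not tested.

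**Figure D2:**
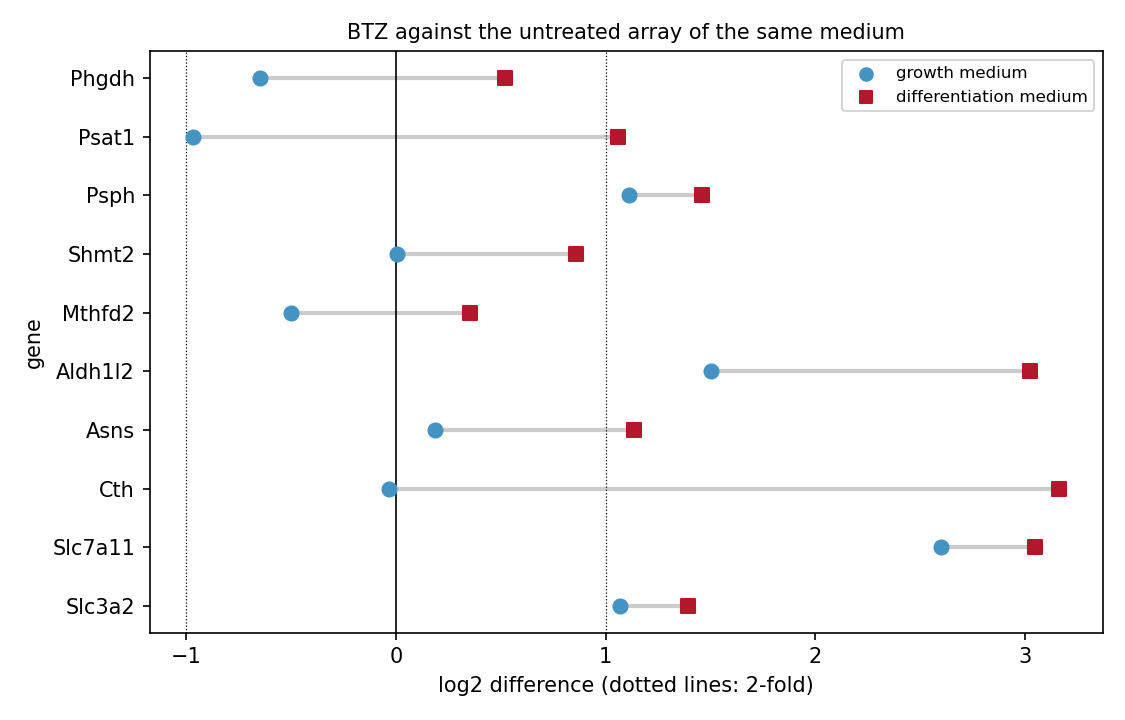
Log2 difference between the BTZ array and the untreated array of the same medium (horizontal axis) for each gene (vertical axis), with circles for growth and squares for differentiation medium; each point is a difference of 2 arrays without replicates, and dotted lines mark 2-fold. By gene mean, all 10 squares lie to the right of 0 and of their circle, from 0.35 for Mthfd2 to 3.16 for Cth, while Phgdh, Psat1 and Mthfd2 have circles from -0.50 to -0.97.

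By gene mean the BTZ difference was higher in differentiation than in growth medium for all 10 genes, by a median of 0.90 log2 units, against -0.02 over all genes. This difference of differences over 4 arrays was 3.19 in Cth, whose control is under the floor, 2.03 in Psat1, 1.52 in Aldh1l2 and 1.17 in Phgdh, which are the 4 of 10 past 1 log2 unit where 3.26% of all genes were, and 4.94% were past it downward. It was 0.33 in Slc3a2 and 0.35 in Psph. In Slc7a11 it was 0.45 by gene mean, 1.41 by probe set 17405082 and -0.51 by probe set 17397421, which was under the floor throughout. The TNF-α differences of Cth were -0.10 in growth and 1.18 in differentiation medium, and those of Psat1 -0.13 and 0.45. A limma fit with a BTZ by medium term was added after the data were seen. The fit takes the TNF-α effect as equal in both media, which the values of Cth do not meet, and leaves 1 residual degree of freedom. By it the BTZ effect was higher in differentiation medium for Psat1, by 1.73 ± 0.31 (SE, adjusted p = 0.0339), and for Cth, by 2.55 ± 0.49 (adjusted p = 0.0391). These were 2 of 10 genes, with 0 called the other way, where 0.923% of all genes were called higher and 1.92% lower. Adjusted p was 0.0601 for Shmt2, 0.0853 for Phgdh and Mthfd2, and 0.107 to 0.486 for the other 5.

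An additive model of medium and treatment, fitted with limma to all 6 arrays, gave an average BTZ effect over both media with 2 residual degrees of freedom. By this fit 4 of 10 genes rose with BTZ and 0 fell after Benjamini-Hochberg adjustment over 13652 genes, of which 7.31% rose and 6.85% fell. Slc3a2 rose by 1.23 ± 0.15 (SE, adjusted p = 0.0127), Slc7a11 by 2.82 ± 0.37 (adjusted p = 0.0147; 4.34 and adjusted p = 0.0170 by its brighter probe set alone), Psph by 1.29 ± 0.20 (adjusted p = 0.0193) and Aldh1l2 by 2.26 ± 0.36 (adjusted p = 0.0201). These are the genes that were past 2-fold in each medium. Asns had 0.66 ± 0.26 (adjusted p = 0.148) and Cth 1.56 ± 0.69 (adjusted p = 0.185), neither past the threshold of 0.05. Adjusted p was 0.342 to 0.961 for Shmt2, Mthfd2, Phgdh and Psat1. The residual SD of Cth was 1.14 and that of Psat1 0.74, against a median of 0.18 over all genes, because a BTZ difference that is unequal between media enters the residual. Leaving out a BTZ or untreated array leaves 1 sample in that arm, which is assumed to vary like the others. Without either untreated array 0 of 10 genes passed, and then 0% of all genes did. The effects without the growth-medium and the differentiation-medium control were then 2.67 and 2.98 for Slc7a11, 2.91 and 1.62 for Aldh1l2, 1.32 and 1.26 for Psph, and 1.34 and 1.12 for Slc3a2, with adjusted p of 0.100 to 0.202. Without the growth-medium BTZ array 8 of 10 rose, where 13.8% of all genes rose and 14.5% fell. Without the differentiation-medium BTZ array that count was 4, where 9.84% of all genes rose, and Psat1 fell by 0.82 (limma adjusted p = 0.0491), where 9.46% fell.

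The media were compared within each treatment, which gives 3 differences that share no array. By gene mean, all 10 genes had lower values in untreated differentiation medium than in untreated growth medium, as did 48.7% of all genes. The median was -0.83 against 0.01 over all genes. For Slc7a11 the difference was -1.30 by probe set 17405082 and 0.35 by probe set 17397421. Both read under the floor in untreated differentiation medium. Of the 10, 4 were at least 2-fold lower (Cth at -1.68, Aldh1l2 and Psat1 at -1.36, Phgdh at -1.06) and 0 higher, where 3.92% of all genes were lower and 4.83% higher. Slc3a2 and Psph were near equal, at -0.07 and -0.09. With TNF-α 9 of 10 were lower, as were 49.2% of all genes (median -0.63 against 0.01 over all genes), with Slc3a2 at 0.05. There Slc7a11 (-1.55 by gene mean) and Shmt2 (-1.12) were past 2-fold, where 4.85% of all genes were that much lower and 5.85% that much higher. With TNF-α, Slc7a11 probe set 17405082 read 7.08 in growth and 4.17 in differentiation medium, and probe set 17397421 read 3.39 and 3.21. Both were under the floor in differentiation medium, so the size of this difference is not exact. With BTZ 8 of 10 were higher in differentiation medium by gene mean, as were 49.6% of all genes. The median was 0.23 against -0.003 over all genes, and Shmt2 and Slc7a11 were at -0.06 and -0.02. The Slc7a11 probe sets differed in sign with BTZ. Probe set 17405082 read 8.74 in growth and 8.84 in differentiation medium, and probe set 17397421, under the floor, read 4.44 and 4.29. Only Cth was past 2-fold there, at 1.51, where 1.54% of all genes were that much higher and 2.13% that much lower.

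**Figure D3:**
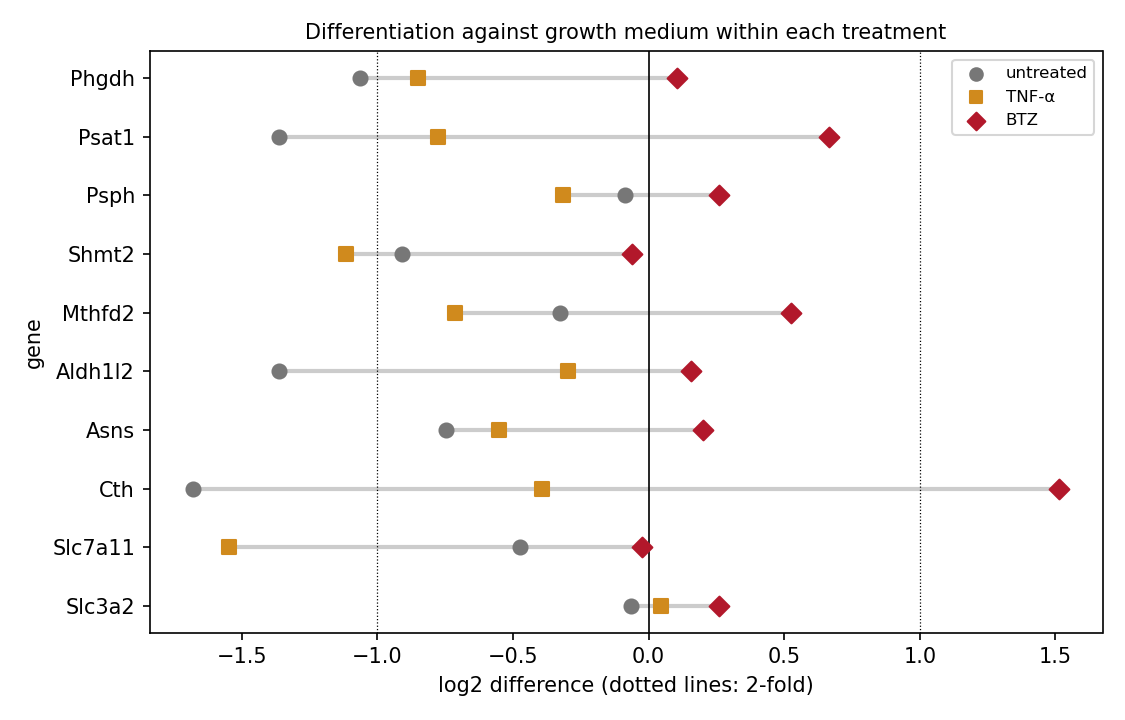
Log2 difference of differentiation against growth medium (horizontal axis) for each gene (vertical axis), in untreated cells (grey circles), with TNF-α (orange squares) and with BTZ (red diamonds); each point is a difference of 2 arrays without replicates, and dotted lines mark 2-fold. By gene mean, all 10 grey circles lie below 0, from -1.68 to -0.07, and the red diamonds lie between -0.06 and 1.51.

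By the additive fit of all 6 arrays 0 of 10 genes passed for medium, in either direction, where 2.47% of all genes fell and 1.56% rose. At an unadjusted p under 0.05 there was 1 of 10, Shmt2, with an effect of -0.70 ± 0.22 (SE, limma adjusted p = 0.149). In either direction 3092 of the 13652 genes had an unadjusted p under 0.05, a share that 1 of 10 does not exceed. Leaving out either BTZ array makes the medium effect rest on the untreated and TNF-α pairs alone. Then 8 of 10 genes fell in differentiation medium, where 11.6% of all genes fell and 12.3% rose (11.5% and 12.3% without the other BTZ array). By that limma fit Shmt2 fell by 1.01 ± 0.13 (adjusted p = 0.00102), Phgdh by 0.96 ± 0.16 (adjusted p = 0.00379), Psat1 by 1.07 ± 0.18 (adjusted p = 0.00462) and Asns by 0.65 ± 0.14 (adjusted p = 0.0125). Mthfd2, Aldh1l2, Cth and Slc7a11 also fell, with effects of -0.52, -0.83, -1.04 and -1.01. Those of Cth and Slc7a11 are not exact, since they use values under the floor. Cth read 4.39 in untreated differentiation medium. By gene mean Slc7a11 read 3.99 and 3.52 on the untreated growth and differentiation arrays and 3.69 with TNF-α in differentiation medium, and its 2 probe sets disagree. Psph (-0.20) and Slc3a2 (-0.01) did not pass. Leaving out either untreated array gave 0 of 10, where 0% of all genes fell and 0.00732% rose; Psat1 was then at -0.06 and Cth at 0.56. Leaving out a TNF-α array also gave 0 of 10, where 0.608% or 0.637% of all genes fell and 0.205% rose.

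By gene mean, the untreated differentiation array was the lowest of the 6 for 8 of the 10 genes. Of all genes, 17.7% had their lowest value on this array. It is the control of both differentiation-medium treatments and 1 side of the untreated medium comparison, so these differences share its value. Set against untreated growth medium in its place, the BTZ array of differentiation medium had 7 of 10 genes higher, with a median of 0.86. Of these, 5 were at least 2-fold higher, where 7.01% of all genes were and 8.13% were as much lower: Slc7a11 at 2.57, Aldh1l2 at 1.66, Cth at 1.48, Psph at 1.37 and Slc3a2 at 1.33. Phgdh and Psat1 were still below untreated growth medium, at -0.54 and -0.30.

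TNF-α was compared with untreated cells in the same way. In growth medium 1 of 10 genes was at least 2-fold higher and 0 lower, where 0.982% of all genes were higher and 1.02% lower. That gene was Slc7a11, at 1.25 by gene mean, 1.98 by probe set 17405082 and 0.51 by the other. Shmt2 (0.52), Phgdh (0.50) and Mthfd2 (0.40) were also above the untreated array, and Aldh1l2 was below it (-0.47). In differentiation medium 1 of 10 was at least 2-fold higher, where 2.01% of all genes were and 0.879% were lower. It was Cth, at 1.18, which started under the floor. Phgdh was at 0.71, Aldh1l2 at 0.60 and Slc7a11 at 0.17. The TNF-α difference in differentiation medium exceeded that in growth medium by over 1 log2 unit in Cth (1.29) and Aldh1l2 (1.07), where 1.84% of all genes did. It fell short by as much in Slc7a11 (-1.07 by gene mean), where 0.996% did. By gene mean both untreated arrays and the differentiation-medium TNF-α array of Slc7a11 were under the floor, so this value is not exact. With growth medium first, its TNF-α differences were 1.98 and 0.37 by probe set 17405082 and 0.51 and -0.03 by probe set 17397421. By the additive limma fit 0 of 10 passed for TNF-α, with adjusted p of 0.789 to 0.981. Of all genes 0.0806% rose and 0.0146% fell. At an unadjusted p under 0.05 there were also 0 of 10, where 896 of the 13652 genes passed in either direction.

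Cytosolic counterparts of the mitochondrial one-carbon enzymes had other values with BTZ. Shmt1, the cytosolic serine hydroxymethyltransferase, differed by -0.32 in growth and -0.13 in differentiation medium, beside 0.01 and 0.86 for Shmt2. Mthfd1, the cytosolic trifunctional enzyme, differed by -1.15 and -0.30, beside -0.50 and 0.35 for Mthfd2 and -0.31 and 1.05 for Mthfd1l, the mitochondrial synthetase. Aldh1l1, the cytosolic paralogue of Aldh1l2, differed by -0.16 and -0.09, beside 1.5 and 3.02. The signal of Aldh1l1 was low, at 5.20 to 5.77 over all arrays, close to the floor. Whether this low signal limits its differences was not tested. Mthfd2l, a close relative of Mthfd2, differed by -0.11 and 0.42. These pairs were not tested against each other. In untreated differentiation medium Shmt1 (-0.95), Mthfd1 (-1.04) and Mthfd1l (-1.68) were lower than in growth medium, as Shmt2 was, and Aldh1l1 was at 0.29.

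The folate cycle list held 21 other genes that reached the floor. With BTZ in growth medium 0 passed 2-fold upward and 2 downward (median -0.22), beside 4.99% and 6.16% of all genes. In differentiation medium 2 passed upward and 1 downward (median -0.19), beside 6.05% and 8.91%. These counts are near those shares. The 2 were thymidylate synthase Tyms (-1.54) and Mthfd1. In differentiation medium they were Mthfd1l and Atic (1.01), of purine synthesis, with Sfxn3, a mitochondrial carrier that can move serine, at -1.12; Atic was named after its value was seen. By the additive fit with BTZ 1 of the 21, Tyms, fell and 0 rose, beside 6.85% of all genes that fell and 7.31% that rose. Of 10 other genes of methionine and transsulfuration, 0 were past 2-fold in growth medium, and Sqor (1.07), which oxidises sulfide, was the 1 in differentiation medium, near the 6.05% of all genes. Cbs, which precedes Cth in transsulfuration, differed by -0.11 and 0.18 where Cth differed by -0.03 and 3.16. The signal of Cbs was low, at 5.28 to 5.64 over all arrays, close to the floor. Whether this low signal limits the differences of Cbs was not tested.

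Genes that use cysteine or its products come next. Of 12 genes of glutathione and thioredoxin 2 passed 2-fold upward in growth medium (median 0.52) and 7 in differentiation medium (median 1.43), with 0 downward, beside 4.99% and 6.05% of all genes upward. The glutamate-cysteine ligase subunits Gclm and Gclc differed by 0.61 and 0.58 in growth medium and by 2.68 and 1.34 in differentiation medium. Srxn1, which repairs peroxiredoxins, differed by 1.57 and 2.67, Txnrd1, the cytosolic thioredoxin reductase, by 0.58 and 1.80, and Ggct, of glutathione turnover, by 0.24 and 1.65. By the additive fit 3 of the 12 rose with BTZ (Srxn1, Chac1 and Gss) and 0 fell, beside 7.31% and 6.85% of all genes; Chac1 and Gss were named after their values were seen.

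Of 18 cytosolic aminoacyl-tRNA synthetases, which charge tRNAs with amino acids, 2 passed 2-fold upward with BTZ in growth medium (median 0.42) and 6 in differentiation medium (median 0.86), with 0 downward, beside 4.99% and 6.05% of all genes upward. The 2 were Wars and Farsa (1.06), the latter named after its value was seen. Wars differed by 1.05 and 1.86, Cars, which charges cysteine, by 0.99 and 1.26, Nars, which charges asparagine, by 0.58 and 1.22, and Hars by 0.41 and 1.14. By the fit 7 of 18 rose and 0 fell, beside 7.31% and 6.85% of all genes. Of 10 other amino acid transporters 1 was higher in growth medium, Slc38a1 at 1.05, and 2 were higher in differentiation medium, Slc7a1 at 1.09 and Slc38a1 at 1.04. Slc43a1 was lower there, at -1.36. Of all genes 4.99% were higher in growth medium, and 6.05% higher and 8.91% lower in differentiation medium. Counts of 1 or 2 among 10 genes are too small to tell apart from these shares. Slc7a5, which also pairs with Slc3a2, differed by 0.17 and 0.998, under 2-fold. Of 15 other enzymes of amino acid metabolism 0 and 2 were higher, Bcat1 at 2.08 and Got1 at 1.09 in differentiation medium, while Gpt2 was at -0.84 and Ass1 at 0.78. These counts too are too small to tell apart from the shares over all genes.

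Among 23 stress regulators 6 passed 2-fold upward with BTZ and 0 downward in growth medium (median 0.45), beside 4.99% and 6.16% of all genes. In differentiation medium 7 passed upward and 2 downward (median 0.72), beside 6.05% and 8.91%, so the count downward is near the share over all genes. The 2 downward were Fgf21 (-1.96) and Vldlr (-1.45), named after their values were seen. Atf4 itself differed by 0.34 and 0.94; by the fit its BTZ effect was 0.64 ± 0.19 (SE, limma adjusted p = 0.0782), which did not pass. Atf3, a factor downstream of it, differed by 2.06 and 3.50, Ddit3 by 1.54 and 2.64, Trib3 by 1.39 and 2.45, the phosphatase subunit Ppp1r15a by 2.60 and 2.74, and Sesn2 by 2.32 and 2.49. By the fit 8 of the 23 rose, these 5 among them, and 0 fell, beside 7.31% and 6.85% of all genes.

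**Figure D4:**
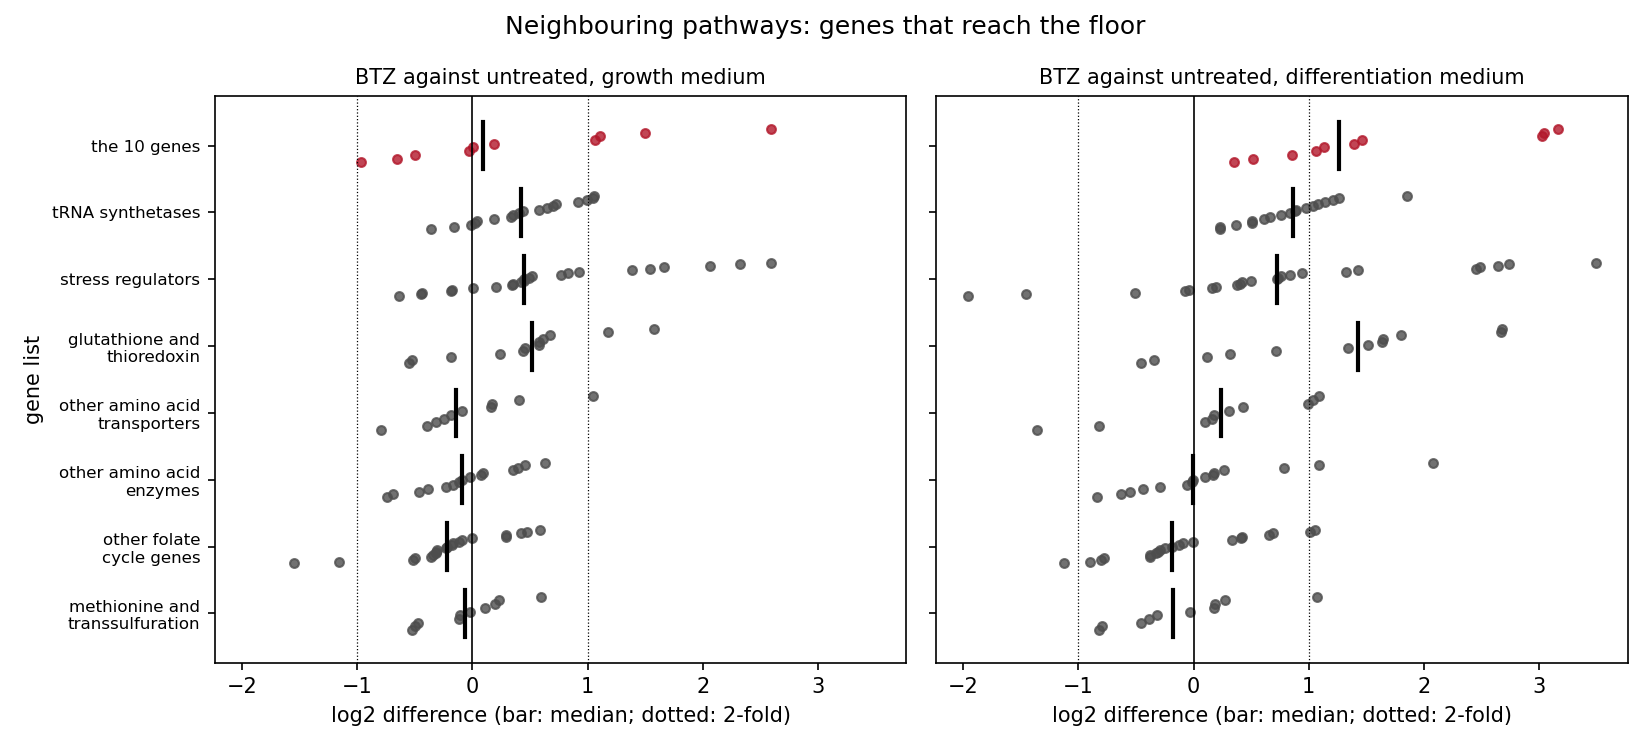
Log2 difference of BTZ against untreated (horizontal axis) in growth medium (left) and differentiation medium (right) for the 10 genes (red) and 7 lists of neighbouring pathways (grey), for genes above the floor; each point is a gene, the bar is the list's median and dotted lines mark 2-fold. In differentiation medium the 10 genes have a median of 1.26 and the glutathione and thioredoxin genes 1.43, while the other folate cycle genes stand at -0.19.

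The likeness of the 10 genes was described by Pearson's r over the 6 arrays, which share their controls and depend on few points. Against the mean of the other 9, r was 0.98 for Asns, 0.89 for Cth, 0.87 for Aldh1l2, 0.86 for Slc7a11, 0.83 for Psph, 0.76 for Slc3a2, 0.70 for Shmt2, 0.52 for Psat1, 0.27 for Mthfd2 and 0.21 for Phgdh. Of the 3 genes with the lowest r, each was below the untreated array by at least 0.50 with BTZ in growth medium. The mean of the 10 centred genes was -0.03 untreated, 0.18 with TNF-α and 0.40 with BTZ in growth medium, and -0.84, -0.47 and 0.76 in differentiation medium. Among 4816 other genes above the floor with a range of at least 1 log2 unit, those most like this mean were Cacybp, Septin6, Mtrf1l, Hprt, Ube2k and 4933407K13Rik, with r of 0.992 to 0.998 over the 6 arrays. Cacybp read 10.31, 10.56 and 10.84 in growth medium and 9.29, 9.63 and 11.36 in differentiation medium.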

How the data were processed

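Total RNA from 6 C2C12 cultures was labelled as biotin-tagged cDNA with a whole-transcript kit and read on 1 Affymetrix array each, per the labels' protocols. The authors deposited 1 value per probe set and array, taken as log2 signal because values ran from 1.66 to 14.1; how they were summarized, background-corrected or normalized is not given in the sources used here. Detection calls were not analysed. Of 41345 probe sets, 23521 named 1 gene symbol in the platform annotation, 1814 several and 16010 were not listed there. Probe sets with 1 symbol were averaged by gene; genes whose highest array reached 5.06, the median of all values, were compared. Levels were not compared between genes.

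Differences of 2 arrays were called at 2-fold, with no test. The model with additive medium and treatment terms came from limma 3.58.1 (R 4.3.3; moderated with an intensity trend), with Benjamini-Hochberg adjustment and a threshold of 0.05. With no replicates, its error is the spread of treatment effects between media; the number of arrays limits precision. Media compared under TNF-α or BTZ, BTZ in differentiation medium against untreated growth medium, and a fit with a BTZ by medium term, were added after the data were seen. The genes and lists were chosen with earlier results of these data known. Named genes were the 10, up to 4 per other list with the largest BTZ difference, fixed counterparts (such as Shmt1, Cbs and Atf4) and the 6 most alike in pattern. The alternatives were array scaling, the highest probe set, the floor, 1.5-fold, the variance trend and leaving out arrays.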

Additional observations from a re-analysis of the deposited data

Results flagged for a closer look

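With BTZ, 3 genes were below the untreated array in growth medium and above it in differentiation medium, each by more than 0.18, the median residual SD over all genes. The residual SDs of these genes in the additive fit were larger, at 0.74 for Psat1, 0.44 for Phgdh and 0.45 for Mthfd2. Those SDs include the unequal BTZ difference itself. The share of all genes that changed direction in this way is not given here. The effect in differentiation medium minus that in growth medium was 2.03 log2 units for Psat1, 1.17 for Phgdh and 0.85 for Mthfd2. With TNF-α, Aldh1l2 was below the untreated array in growth medium and above it in differentiation medium, and the difference of effects was 1.07. Each rests on 4 arrays with 1 per group. In the limma fit with a BTZ by medium term, the term was 1.73 for Psat1 (adjusted p = 0.0339), 1.06 for Phgdh and 1.05 for Mthfd2 (adjusted p = 0.0853 for both), so that of Psat1 alone of these 3 passed 0.05. The difference of Aldh1l2 with TNF-α was not tested.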

How the results depend on the processing

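No paired analysis was possible because each group had 1 array and the groups share fewer than 2 replicate numbers. Under array scaling, the counts of the 10 genes past 2-fold stayed within 1.5 times of those reported, with 1 exception. Once array medians were made equal, and likewise under quantile normalization, 1 gene was at least 2-fold lower with BTZ in growth medium, in place of 0; at 1.5-fold there were 2. At 1.5-fold 3 genes were higher with TNF-α in differentiation medium, in place of 1. Shares over all genes at 1.5-fold are not given here, so a larger count at that threshold is not set apart from the looser threshold. The floor, the highest probe set and the variance trend moved no count by over 1.5 times, and the only gene whose differences moved by more than the median residual SD of 0.18 was Slc7a11, with its highest probe set in all 5 comparisons. Signs near 0 turned with scaling for Shmt2 with BTZ in growth medium, for Asns and Slc3a2 with TNF-α in growth medium and for Mthfd2 with TNF-α in differentiation medium. In the additive fit, leaving out each array in turn gave 0 to 8 genes called higher with BTZ (4 with all arrays), 0 to 1 called lower, and 0 to 8 called lower in differentiation medium (0 with all arrays). Low signal limits the values: Slc7a11 was under it on 3 arrays by gene mean, and Cth on 1.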
